A study of Homo sapiens with 14 samples.

Results

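The genes described here are 10 classical markers of vascular endothelial cells, PECAM1, CDH5, KDR, FLT1, TEK, TIE1, ENG, VWF, CLDN5 and ERG, out of 19923 genes in the count tables. They were matched by gene name, and each was found in every table. The list was chosen by its measured counts in the labelled TET2 knockouts against their control, so values against that control describe the members and support nothing. Counts of members past the threshold in that contrast are given only beside the share over all genes. Polyadenylated RNA was sequenced in 14 libraries, 7 groups of 2, all from the MYCN-amplified human neuroblastoma line SK-N-BE2. In batch 1, cells with the genotype label WT received CoCl2 at 10 or 50 µM, or water alone (H2O). This cobalt salt is commonly used as a chemical mimic of hypoxia, because it stabilises hypoxia-inducible factors. Batch 2 held untreated cells, either wild type by their label (WT) or a knockout of TET2 by their label, numbered 1 to 3. The TET2 protein is a dioxygenase that converts methylated cytosine to oxidised forms. How the knockouts were made, whether each is 1 clone, and how long CoCl2 was applied is not given in the sources used here.

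Endothelial cells line blood vessels, and the members cover the parts of that identity. KDR and FLT1 are receptors of vascular endothelial growth factor (VEGF): KDR carries most of the growth signal, whereas FLT1 binds its ligands tightly but signals weakly and is widely described as a decoy. TEK is the receptor of the angiopoietins and TIE1 its partner receptor. ENG is a co-receptor for ligands of the BMP and TGF-β family. CDH5, PECAM1 and CLDN5 are adhesion and tight-junction proteins of endothelial cell contacts, VWF is a clotting factor that endothelial cells store, and ERG is an ETS-family transcription factor. A neuroblastoma line contains no vessel, so these transcripts are read here as RNA of a tumour-cell culture. In bulk samples of this kind, fewer cells of a type and less RNA per cell cannot be told apart.

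The promoters of the VEGF and angiopoietin receptor pairs are shown first, because FLT1 and TEK were highest in labelled knockout 2, whereas KDR and TIE1 were below WT in all 3. Each runs from 250 bases before to 50 bases after the gene's first listed start, from RefSeq on GRCh38.p14, on the gene's own strand. They lie at chr4:55125546-55125845 (minus strand) for KDR, chr13:28495079-28495378 (minus) for FLT1, chr9:27108975-27109274 (plus) for TEK and chr1:43300732-43301031 (plus) for TIE1. Capitals mark GGAA or its complement TTCC, the core letters bound by ETS factors such as ERG, and in FLT1 also TGACGTCA, the cAMP response element.
KDR: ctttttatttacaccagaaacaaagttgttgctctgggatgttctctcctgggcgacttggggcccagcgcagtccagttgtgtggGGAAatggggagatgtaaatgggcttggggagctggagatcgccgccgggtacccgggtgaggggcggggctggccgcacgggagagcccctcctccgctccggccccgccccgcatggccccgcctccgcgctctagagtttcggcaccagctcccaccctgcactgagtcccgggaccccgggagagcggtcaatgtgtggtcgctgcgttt
FLT1: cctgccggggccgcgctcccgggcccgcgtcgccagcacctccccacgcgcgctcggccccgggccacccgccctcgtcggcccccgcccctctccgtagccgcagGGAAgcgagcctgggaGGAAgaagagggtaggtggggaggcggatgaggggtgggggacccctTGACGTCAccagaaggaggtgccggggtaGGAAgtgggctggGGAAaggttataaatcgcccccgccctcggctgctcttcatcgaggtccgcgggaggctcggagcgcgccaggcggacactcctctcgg
TEK: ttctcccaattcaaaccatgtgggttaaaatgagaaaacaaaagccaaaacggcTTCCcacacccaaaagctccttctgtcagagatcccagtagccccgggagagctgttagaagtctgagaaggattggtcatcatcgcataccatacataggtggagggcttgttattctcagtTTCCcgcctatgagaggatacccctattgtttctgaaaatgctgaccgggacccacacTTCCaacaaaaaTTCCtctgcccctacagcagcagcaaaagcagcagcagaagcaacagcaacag
TIE1: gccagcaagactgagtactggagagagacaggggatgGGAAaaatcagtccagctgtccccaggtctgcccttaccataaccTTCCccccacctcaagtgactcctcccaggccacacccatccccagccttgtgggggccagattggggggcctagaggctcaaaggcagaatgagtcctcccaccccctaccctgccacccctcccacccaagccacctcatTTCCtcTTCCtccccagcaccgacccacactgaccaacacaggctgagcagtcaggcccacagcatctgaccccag

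Motifs were searched on both strands. GGAA occurred in 95.45% of 34943 RefSeq promoter windows of this length, so its presence in all 4 is common. FLT1 held 4 matches, TEK 4, TIE1 4 and KDR 1, against a median of 3 per window. TGACGTCA occurred once, in FLT1, and in 1.84% of all windows. ACGTG, 1 form of the core of the hypoxia-inducible factor site, occurred in 21.38% of windows and in none of these 4. The other form, GCGTG, was not searched over the windows, so its share is not known. Its complement CACGC stands in the printed FLT1 sequence, in lower case. AACAGGAA, the core of a composite FOX and ETS site that contains GGAA, occurred in 2.21% of windows, in none of these 4, and in the window of the second listed start of TEK. Of the members, 6 had an entry among these windows (ENG and ERG besides the 4 shown). CpG content separated the pairs: FLT1 had 33 CpG dinucleotides and KDR 22, TEK 5 and TIE1 1, where the median window had 14 with quartiles of 4 and 28. These are matches of letters, and no binding or methylation was measured.

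The members lie on 9 chromosomes. In GRCh38 with GENCODE release 33, PECAM1 spans chromosome 17, 64319415 to 64413776 (minus strand), CDH5 chromosome 16, 66366622 to 66404784 (plus), and KDR chromosome 4, 55078481 to 55125595 (minus). FLT1 spans chromosome 13, 28300346 to 28495145 (minus), TEK chromosome 9, 27109141 to 27230174 (plus), and TIE1 chromosome 1, 43300982 to 43323108 (plus). ENG spans chromosome 9, 127815012 to 127854756 (minus), VWF chromosome 12, 5948874 to 6124770 (minus), CLDN5 chromosome 22, 19523024 to 19527545 (minus), and ERG chromosome 21, 38380027 to 38661780 (minus). Counts were made over all exons of a gene, so isoforms such as soluble FLT1 are included in 1 value. ENG exons overlap an antisense transcript in GENCODE release 29. The libraries were strand-specific per the labels, but the counting used no strand, so the ENG reads could include that transcript. VWF has a near-identical partial pseudogene, and its low counts are uncertain for that reason.

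Library totals ran from 31214128 to 39540111 counts in batch 1 and from 52095024 to 59263320 in batch 2. In batch 2 most counts stand for single reads, 2 per sequenced fragment. Levels are given in CPM, the count scaled to the normalised library total, with n = 2 libraries per group and ± for the SD between them. In WT, TET2 itself had 67.8 ± 4.30 CPM, against 78.5 ± 2.71, 89.2 ± 2.67 and 71.8 ± 5.08 CPM in labelled knockouts 1, 2 and 3. The TET2 mRNA was not lower in any of them, so every direction given for a labelled knockout rests on the label. The 9 adrenergic neuroblastoma markers examined had means of 25.6 to 5240 CPM in H2O and 37.8 to 4640 CPM in WT, with MYCN the highest. Replicates were not stated to be separate cultures, so p-values measure the spread between these libraries, which may be technical.

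All 10 members were detected in WT, at low levels apart from ENG. Set per kilobase of exon, ENG stood at 12.3 CPM per kb in WT, followed by FLT1 at 0.793, CDH5 at 0.750, KDR at 0.431, PECAM1 at 0.359, TEK at 0.281 and TIE1 at 0.172. ERG (0.111), CLDN5 (0.105) and VWF (0.0242 CPM per kb) closed the order. The WT library ranges of FLT1 and CDH5 overlapped, as did those of TIE1 and ERG and those of ERG and CLDN5, so these neighbours have no order beyond their spread. ENG also led in every other group, at 4.70 CPM per kb in H2O, 4.59 at 10 µM, 6.59 at 50 µM, and 8.93, 8.61 and 7.67 in labelled knockouts 1, 2 and 3. It supplied 66.9% of the members' summed CPM in WT and 83.0% in H2O, so a sum over the list mainly tracks ENG.

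**Figure D1:**
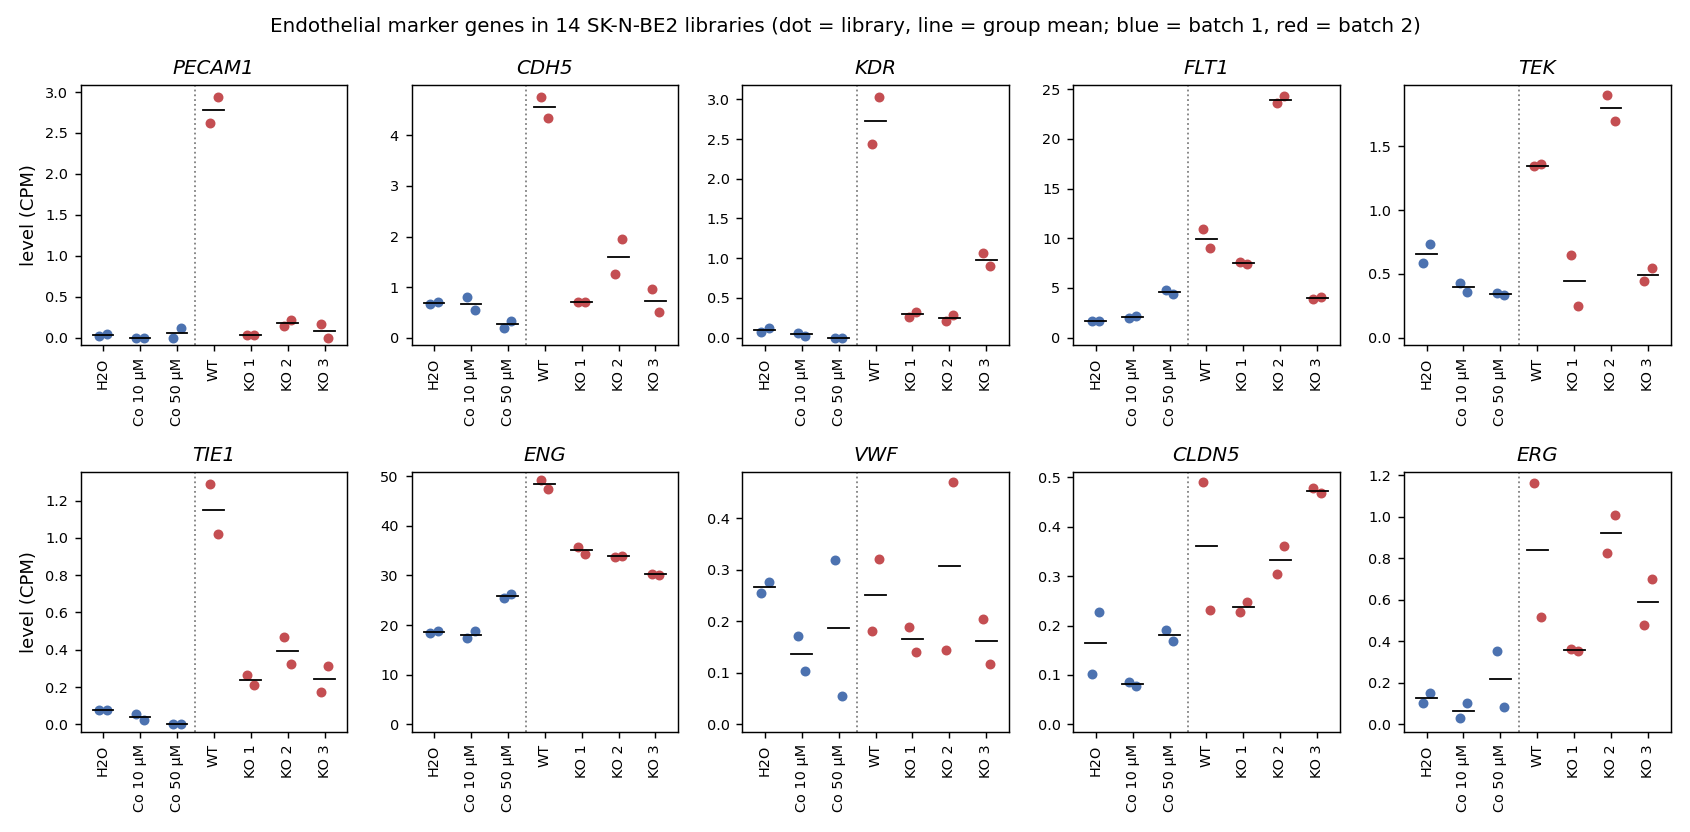
Level in CPM (vertical axis, linear, a separate scale per gene) of each of the 10 members in the 7 groups; each dot is a library, each short line a group mean, blue is batch 1 and red batch 2. PECAM1, CDH5, KDR, TIE1 and ENG have all 6 libraries of the labelled knockouts below both WT libraries, whereas FLT1 and TEK are highest in labelled knockout 2.

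PECAM1, the adhesion molecule CD31, was close to 0 in the labelled knockouts. It had 144 and 165 counts in the WT libraries (2.62 and 2.94 CPM). Labelled knockout 1 gave 2 and 2 counts, knockout 2 gave 8 and 12, and knockout 3 gave 10 and 0. All 6 libraries lay far below WT, and 1 library of knockout 3 held none. The log2 fold changes against WT were -6.16 (SE 0.54), -3.93 (SE 0.39) and -4.90 (SE 0.46) in knockouts 1, 2 and 3. At these counts a difference among the 3 knockouts was not detectable (edgeR's F-test, adjusted p 0.253).

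CDH5, or VE-cadherin, the main adhesion protein of endothelial junctions, stood at 4.77 and 4.35 CPM in WT. It read 0.704 and 0.706 CPM in labelled knockout 1, 1.26 and 1.95 in knockout 2, and 0.957 and 0.507 in knockout 3. None of the 6 reached the WT range. The log2 fold changes were -2.69 (SE 0.26), -1.51 (SE 0.21) and -2.61 (SE 0.25). CLDN5, a tight-junction claudin, showed no such separation: WT gave 0.491 and 0.232 CPM, and the 6 libraries of the labelled knockouts ran from 0.228 to 0.478 CPM with a median of 0.333, inside or beside the WT range.

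KDR was below WT in all 3 labelled knockouts, and FLT1 was below it in knockouts 1 and 3 and above it in knockout 2. KDR stood at 2.44 and 3.03 CPM in WT, at 0.266 and 0.318 in labelled knockout 1, at 0.215 and 0.289 in knockout 2, and at 1.06 and 0.897 in knockout 3. All 6 values were below WT, with knockout 3 the highest of them, and the log2 fold changes were -3.21 (SE 0.35), -3.43 (SE 0.36) and -1.47 (SE 0.26). FLT1 stood at 10.9 and 9.02 CPM in WT, at 7.59 and 7.45 in knockout 1, at 23.6 and 24.3 in knockout 2, and at 3.90 and 4.07 in knockout 3. Knockout 2 thus lay above WT and the other two below it, and the log2 fold changes were -0.41 (SE 0.12), 1.26 (SE 0.09) and -1.32 (SE 0.14). Per kilobase, FLT1 exceeded KDR 2.26- and 1.5-fold in the WT libraries, 1.86- and 2.29-fold in knockout 3, 14.4- and 11.8-fold in knockout 1, and 55.3- and 42.3-fold in knockout 2.

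The angiopoietin receptor TEK was, like FLT1, highest in labelled knockout 2. It stood at 1.35 and 1.36 CPM in WT, 0.647 and 0.247 in labelled knockout 1, 1.9 and 1.7 in knockout 2, and 0.444 and 0.546 in knockout 3. Knockout 2 was above WT and the others below, with log2 fold changes of -1.61 (SE 0.38), 0.41 (SE 0.27) and -1.45 (SE 0.37). Its partner TIE1 was below WT in all 6 libraries: 1.29 and 1.02 CPM in WT, then 0.266 and 0.212, 0.466 and 0.326, and 0.171 and 0.312 in knockouts 1, 2 and 3. The log2 fold changes of TIE1 were -2.26 (SE 0.46), -1.53 (SE 0.40) and -2.27 (SE 0.46).

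ENG, the most abundant member, had the smallest difference of the 5 members whose groups lay apart from WT. WT gave 49.3 and 47.5 CPM, labelled knockout 1 gave 35.8 and 34.4, knockout 2 gave 33.8 and 34.0, and knockout 3 gave 30.3 and 30.1. The groups did not overlap with WT, and the log2 fold changes were -0.46 (SE 0.06), -0.51 (SE 0.06) and -0.68 (SE 0.06). ERG, the transcription factor, was spread widely within WT, at 1.16 and 0.517 CPM, and read 0.361 and 0.353, 0.825 and 1.01, and 0.478 and 0.702 CPM in knockouts 1, 2 and 3. Its log2 fold changes were -1.22 (SE 0.46), 0.13 (SE 0.36) and -0.52 (SE 0.40), and only 3 of the 6 libraries lay below both WT libraries. VWF stood at 0.182 and 0.321 CPM in WT and between 0.117 and 0.470 CPM, with a median of 0.167, in the labelled knockouts, an overlap that these 6 to 26 counts per library cannot resolve.

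Of the 10 members, 5 (PECAM1, CDH5, KDR, TIE1 and ENG) had every library of the labelled knockouts below WT, and the other 5 overlapped. The share of all genes separated in this way is not given here, so this only describes the members. As a description of the contrast that chose them, 6 of 10 members passed edgeR's threshold as lower and 0 as higher in the average of the 3 labelled knockouts, where 11.4% of all 14061 genes tested were called lower and 7.54% higher. These members were PECAM1, CDH5, KDR, TEK, TIE1 and ENG. TEK did not pass without the first or second WT library (average log2 fold change -0.89 and -0.88), without the second library of labelled knockout 1 (-0.70), or with 1 coefficient for the 6 libraries (-0.56). Singly, labelled knockout 1 had 8 members past the threshold as lower and 0 as higher (9.72% and 7.79% of all genes), knockout 2 had 5 lower and 1 higher, FLT1 (14.3% and 12.0%), and knockout 3 had 7 lower and 0 higher (9.96% and 8.9%). Without its second library, labelled knockout 1 had 5, with FLT1 (-0.39), TEK (-1.06) and ERG (-1.21) no longer past it. In that knockout, ERG did not pass in 8 of 14 alternatives, among them those without the first library of knockout 1 (-1.24), of knockout 2 (-1.22) or of WT (-0.53). FLT1 did not pass in 2 of the 14, the other being without the first WT library (-0.26), and DESeq2 passed 7 members. In knockout 3, TEK did not pass without the first library of that knockout (-1.30). Because the members were chosen on this contrast, nothing is read from these shares.

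**Figure D2:**
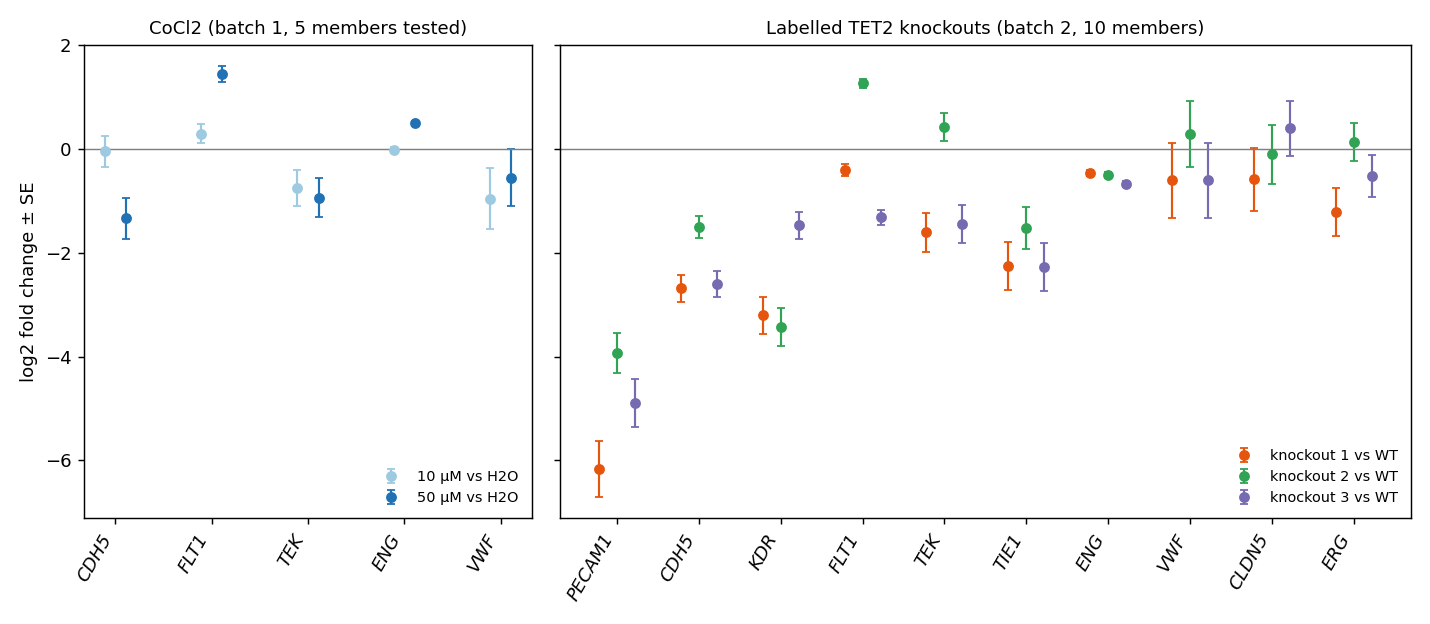
Log2 fold change ± SE (vertical axis) of each member against its own batch control: left, 5 members tested under CoCl2; right, 10 members in labelled knockouts 1, 2 and 3. Under 50 µM CoCl2, FLT1 and ENG lie above 0 and CDH5 and TEK below it; in the labelled knockouts, FLT1 runs from -1.32 to 1.26.

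The labelled knockouts were then compared with one another, a contrast that does not involve WT. A single F-test over the 3 groups called 6 of 10 members, beside 37.6% of all genes. FLT1 had the widest spread, a range of 2.59 in log2 fold change (adjusted p 1.42e-60). TEK followed with 2.03 (adjusted p 2.78e-08) and KDR with 1.95 (adjusted p 0.000141). ERG ranged over 1.36 (adjusted p 0.0294), CDH5 over 1.18 (adjusted p 0.00144) and ENG over 0.22 (adjusted p 0.0133). PECAM1, TIE1, VWF and CLDN5 were not called. The CDH5 call ended without the second library of knockout 2 (adjusted p 0.238). That of ENG ended without the first library of knockout 1 (0.0605) or either library of knockout 3 (0.0839 and 0.0889). That of ERG ended when any library of knockout 1 or 2 was left out (0.0632 to 0.194) and in DESeq2 (0.0800).

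Pair by pair, labelled knockout 2 exceeded knockout 1 in 4 members, beside 12.9% of all genes called higher (26.5% called either way). These were FLT1 (log2 fold change 1.67, SE 0.10, adjusted p 1.09e-38), TEK (2.03, SE 0.36, adjusted p 8.11e-07), CDH5 (1.18, SE 0.33, adjusted p 0.00289) and ERG (1.36, SE 0.45, adjusted p 0.0129). Without the second library of knockout 2 the calls fell to 2, with CDH5 at adjusted p 0.167 and ERG at 0.114; ERG also lost its call without either library of knockout 1 (0.0706 and 0.0988). Knockout 3 exceeded knockout 1 in KDR (1.74, SE 0.46, adjusted p 0.00520) and was lower in FLT1 (-0.92, SE 0.15, adjusted p 6.20e-07) and ENG (-0.22, SE 0.07, adjusted p 0.0234), beside 4.41% of genes called higher and 3.89% lower, 8.3% in all. Only FLT1 of these 3 kept its call when a library was left out: KDR lost it without either library of knockout 1 or the first of knockout 3 (0.0548 to 0.0856), and ENG without any of the 4 (0.0607 to 0.195). Knockout 3 against knockout 2, with 17.3% of genes called higher and 16.8% lower (34.2% in all), was higher in KDR (1.95, SE 0.47, adjusted p 0.000342). It was lower in FLT1 (-2.59, SE 0.11, adjusted p 1.48e-56), TEK (-1.87, SE 0.35, adjusted p 2.24e-06), CDH5 (-1.10, SE 0.33, adjusted p 0.00410) and ENG (-0.17, SE 0.07, adjusted p 0.0429). There CDH5 lost its call without the second library of knockout 2 (0.189) or of knockout 3 (0.133), and ENG without any 1 library of the batch (0.0517 to 0.152). Knockout 3 thus had the highest KDR and the lowest FLT1 of the 3.

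Under CoCl2, FLT1 and ENG rose at the higher dose and CDH5 and TEK fell. At 50 µM against H2O, 4 of the 5 members with enough counts to test were called, 2 higher (beside 30.4% of all genes) and 2 lower (beside 31.1%), together beside 61.4% of all 13636 genes. FLT1 rose from 1.69 and 1.66 CPM in H2O to 4.77 and 4.34 CPM at 50 µM, with no overlap (log2 fold change 1.44, SE 0.15, adjusted p 3.71e-16). ENG rose from 18.3 and 18.7 to 25.5 and 26.3 CPM, also without overlap (log2 fold change 0.49, SE 0.05, adjusted p 1.05e-14). CDH5 fell from 0.664 and 0.706 to 0.192 and 0.336 CPM, on 54 against 18 counts (log2 fold change -1.34, SE 0.39, adjusted p 0.00180). TEK fell from 0.588 and 0.731 to 0.352 and 0.336 CPM, on 52 against 23 counts (log2 fold change -0.94, SE 0.37, adjusted p 0.0222). VWF gave 0.255 and 0.277 CPM in water and 0.320 and 0.0560 CPM under 50 µM, so the groups overlapped, and was not called (log2 fold change -0.56, SE 0.55, adjusted p 0.383).

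The falls of CDH5 and TEK rest on few counts. CDH5 lost its call without the first 50 µM library (adjusted p 0.0570). TEK lost its call without the second H2O library (0.168), without either 50 µM library (0.0763 and 0.119), in DESeq2 (0.168) and in a fit of all 14 libraries (0.127). VWF, in turn, was called lower without the first 50 µM library (log2 fold change -2.19, adjusted p 0.0425), the library that carried 10 of its 12 counts at that dose. FLT1 and ENG kept their calls at 50 µM against H2O under every alternative run.

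At 10 µM, 0 of 5 members were called by edgeR, beside 22.7% of all genes. FLT1 stood at 1.94 and 2.16 CPM, ENG at 17.3 and 18.8, CDH5 at 0.797 and 0.540, TEK at 0.427 and 0.36, and VWF at 0.171 and 0.103 CPM. At an unadjusted p under 0.05 there was 1 member, TEK (log2 fold change -0.75, SE 0.35, adjusted p 0.113), and DESeq2 called 0 of the 2 it gave an adjusted p. Between the doses, 3 members differed, beside 52.8% of genes: FLT1 (log2 fold change 1.14 for 50 against 10 µM, SE 0.15, adjusted p 9.48e-12), ENG (0.52, SE 0.06, adjusted p 1.34e-15) and CDH5 (-1.29, SE 0.40, adjusted p 0.00393). CDH5 lost that call without the first 10 µM library (0.0984), without the first 50 µM library (0.0864), in DESeq2 (0.0588) and in the fit of all 14 libraries (0.0739). For TEK the difference between doses was -0.19 (SE 0.43, adjusted p 0.737).

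The other 5 members, PECAM1, KDR, TIE1, CLDN5 and ERG, were too low in batch 1 for the test. KDR had 3 and 5 counts in the H2O libraries, 2 and 1 at 10 µM and 0 and 0 at 50 µM, where a count of 0 allows up to 0.0448 CPM. Against a floor of 3 counts over the group, KDR was 2.27-fold lower at 50 µM, with its H2O counts taken as exact. TIE1 had 3 and 3, 2 and 1, and 0 and 0 counts, 1.70-fold lower at 50 µM by the same floor. These folds are not lower bounds, since the counting error of the H2O libraries is left out. Each library of both genes held at most 5 counts. Without the filter on low counts both were called lower at 50 µM (adjusted p 0.0218 for KDR and 0.0463 for TIE1). PECAM1 had 1 and 2, 0 and 0, and 0 and 4 counts. CLDN5 had 4 and 9, 3 and 3, and 6 and 6 counts, and ERG 4 and 6, 1 and 4, and 11 and 3. None of these 3 showed groups apart between H2O and 50 µM.

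The control groups are set side by side here without a test. The 8 members other than ENG and FLT1 summed to 1.89 and 2.34 CPM in the H2O libraries and to 14.3 and 13.8 CPM in WT. PECAM1 stood at 0.038 ± 0.0176 CPM in H2O, on 3 counts over both libraries, and at 2.78 ± 0.229 CPM in WT. Both controls are labelled wild type, but batch, culture and counting version differ between them and cannot be told apart. The labelled knockouts, at 2.26 to 6.33 CPM for the same sum, lay between the controls or close to H2O.

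Ligands and partners of these receptors were examined in a list of 19 genes present in the tables. Of these, 16 could be tested in each batch, with VEGFA not among the 16. At 50 µM CoCl2, 4 were higher and 7 lower (median log2 fold change -0.20, against 0.00 over all genes), so 11 of 16 were called, where 61.4% of all genes were (30.4% higher and 31.1% lower). TGFB1, a TGF-β ligand, went up from 8.79 ± 1.12 to 28.8 ± 1.2 CPM (1.71 on the log2 scale, SE 0.06, adjusted p 3.24e-59). NRP1, a VEGF co-receptor, rose from 25.3 ± 0.0328 to 41.1 ± 0.370 CPM (0.70, SE 0.05, adjusted p 3.92e-32), while its relative NRP2 fell from 44.9 ± 1.2 to 31.6 ± 1.96 CPM (-0.51, SE 0.04, adjusted p 1.24e-22). The lymphatic VEGF receptor FLT4 rose by 0.43 and PTPRB, the endothelial phosphatase that acts on TEK, by 0.61. PGF, a ligand of FLT1, fell by 0.76, the angiopoietin ANGPT2 by 0.49 and BMPR2, a BMP receptor, by 0.18. VEGFB, another FLT1 ligand and the most abundant gene of the list per kilobase, fell by 0.17, from 43.9 ± 0.846 to 39.0 ± 1.39 CPM.

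Averaged over the labelled knockouts, 7 of the same 16 genes were lower and 0 higher (median -0.12). ANGPT2 fell from 11.3 ± 0.263 CPM in WT to 6.20, 5.52 and 5.96 CPM in labelled knockouts 1, 2 and 3 (average log2 fold change -0.93, SE 0.10, adjusted p 6.50e-16). NRP1 stood at 68.1 ± 0.746 CPM in WT, 38.5 in knockout 1, 63.9 in knockout 2 and 32.1 in knockout 3 (-0.67, SE 0.04, adjusted p 2.20e-33). NRP2 fell by 0.43 and the TGF-β receptor TGFBR2 by 0.71 in the average. Neither was called in knockout 2 (NRP2 -0.13, adjusted p 0.310, and TGFBR2 -0.10, adjusted p 0.665). In knockouts 1 and 3 NRP2 fell by 0.64 and 0.51, and TGFBR2 by 0.85 and 1.18. Counted over all 3 partner lists, 30 of 62 tested genes were lower and 1 higher, beside 11.4% and 7.54% of all genes. The partner lists, like the marker lists, were chosen with earlier results of these data known. Their counts and adjusted p-values, here and in the other paragraphs, therefore describe the listed genes and are no independent support. In labelled knockout 2 taken singly, 1 receptor partner (TGFB1), 3 other markers (APLNR, CALCRL and BMX) and 1 transcription factor (HEY1) were called higher. In the same contrast 4, 10 and 7 genes of these lists were lower, beside 12.0% of all genes higher and 14.3% lower. With 1 coefficient for the 6 libraries, so that differences between the knockouts enter the spread, 9 of the 62 were called in all, and NRP1 (adjusted p 0.485), NRP2 (0.241) and TGFBR2 (0.412) were not among them.

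Averaged over the labelled knockouts, the other endothelial markers that were called were lower, and those called under 50 µM CoCl2 went both ways. Of 40 in the tables, 27 could be tested in batch 2. There 12 were lower and 0 higher in the average (median -0.71), beside 11.4% and 7.54% of all genes. TM4SF1, a membrane protein abundant in endothelium, had 16.8 ± 1.68 CPM in WT against 2.33, 6.43 and 1.78 in labelled knockouts 1, 2 and 3 (average -2.48, SE 0.10, adjusted p 4.14e-60). EDN1, the vasoconstrictor endothelin-1, had 8.03 ± 0.634 CPM in WT against 2.76, 5.34 and 2.30 (-1.31, SE 0.12, adjusted p 8.24e-20). CD93, an endothelial lectin-like receptor, fell by 2.23 and EGFL7, a secreted vascular protein, by 0.58. With 1 coefficient for the 6 libraries, TM4SF1 (adjusted p 0.0566) and EDN1 (0.111) were not called. APLNR, the apelin receptor and the most abundant of the list per kilobase in WT, was at 88.6 ± 1.29 CPM there and at 82.1, 152 and 64.1 CPM in the knockouts (average 0.07, SE 0.04, not called), and singly it was higher in knockout 2 (0.78, SE 0.04, adjusted p 3.45e-42).

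At 50 µM CoCl2, 20 of these markers could be tested, and 6 were higher and 7 lower (median -0.42), a total of 13 called, beside 61.4% of all genes. MYCT1, an endothelial membrane protein, went from 0.456 ± 0.139 to 2.43 ± 0.318 CPM (2.41 on the log2 scale, SE 0.25, adjusted p 3.18e-17). The sialomucin EMCN rose by 0.70, PALMD by 0.59 and the junction protein JAM2 by 0.15. S1PR1, the receptor of sphingosine 1-phosphate, fell from 3.99 ± 0.109 to 1.06 ± 0.00510 CPM (-1.91, SE 0.18, adjusted p 1.41e-18), and APLNR fell from 12.7 ± 0.510 to 4.89 ± 0.170 CPM (-1.37, SE 0.09, adjusted p 5.14e-31). RAMP2, a co-receptor of adrenomedullin, fell by 1.29 and EGFL7 by 0.70. ICAM2, the most abundant of the list per kilobase in H2O, had 25.2 ± 1.53 CPM in water and 26.6 ± 0.625 under 50 µM and was not called, except without the first H2O library (adjusted p 0.0476). JAM2 lost its call without the first H2O library (adjusted p 0.0913) and in DESeq2 (0.0541).

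Of 24 endothelial transcription factors in the tables, 19 were tested against WT. In the knockout average 11 were lower and 1 higher (median -0.32), beside 11.4% and 7.54% of all genes. FLI1, the closest relative of ERG, had 4.69 ± 0.711 CPM in WT against 1.01, 5.08 and 1.21 in labelled knockouts 1, 2 and 3 (average -1.36, SE 0.16, adjusted p 6.21e-13). ETS1, another ETS factor, had 38.2 ± 1.65 CPM in WT against 18.4, 29.2 and 22.9 (-0.73, SE 0.06, adjusted p 7.83e-27). NR2F2, a venous identity factor, fell by 0.56 and ETS2 by 0.27. With 1 coefficient for the 6 libraries, FLI1 (adjusted p 0.635) and ETS1 (0.115) lost their calls. GATA2, the most abundant of the list per kilobase and also a sympathetic neuroblast factor, was at 616 ± 5.79 CPM in WT and 0.09 higher in the average (SE 0.02, adjusted p 0.00616), a call lost without the first WT library (0.122) and with 1 coefficient (0.539).

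At 50 µM CoCl2, 4 of 17 tested transcription factors were higher and 7 lower (median -0.21), a total of 11 called, beside 61.4% of all genes. HEY1, a Notch target, went from 34.7 ± 1.38 to 48.0 ± 1.07 CPM (0.47 on the log2 scale, SE 0.04, adjusted p 2.93e-21). ETV2 rose by 1.18, KLF2 by 0.79 and SOX18 by 0.54, from means of 0.380, 0.647 and 1.08 CPM in H2O. ETV2 lost its call without the first H2O library (adjusted p 0.0631) and in DESeq2 (0.0521). KLF2 lost it without the second H2O library (0.0568) or the second 50 µM library (0.198), in DESeq2 (0.124) and in the fit of all 14 libraries (0.112). SOX18 lost it without the second H2O library (0.195) or either 50 µM library (0.107 and 0.0854), in DESeq2 (0.197) and in that joint fit (0.200). ETS1 fell from 55.4 ± 0.00313 to 40.0 ± 0.454 CPM (-0.47, SE 0.04, adjusted p 1.88e-23), ELK3 by 0.37, SOX7 by 0.53 and NR2F2 by 0.47. At 10 µM, 17 of the 53 tested genes of the 3 lists were called by edgeR, beside 22.7% of all genes. DESeq2 called 5 and the fit of all 14 libraries 5.

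The partner genes were also compared between labelled knockouts 2 and 1, a contrast without WT in which 12.9% of all genes were higher and 13.6% lower. Of the receptor partners 5 were higher and 2 lower in knockout 2, of the other markers 8 and 3, and of the transcription factors 5 and 2. MYCT1 differed by 2.46 on the log2 scale (SE 0.24, adjusted p 1.03e-18), FLI1 by 2.33 (SE 0.23, adjusted p 5.02e-18) and NRP1 by 0.73 (SE 0.06, adjusted p 3.83e-26). These were higher in knockout 2, as FLT1 and TEK were. Among the genes lower in knockout 2 were S1PR1 (-0.95, SE 0.13, adjusted p 1.91e-10) and RAMP2 (-0.56, SE 0.12, adjusted p 4.88e-05). VEGFB (-0.32, SE 0.07, adjusted p 0.000119) and GATA2 (-0.17, SE 0.03, adjusted p 8.26e-07) were lower too.

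**Figure D3:**
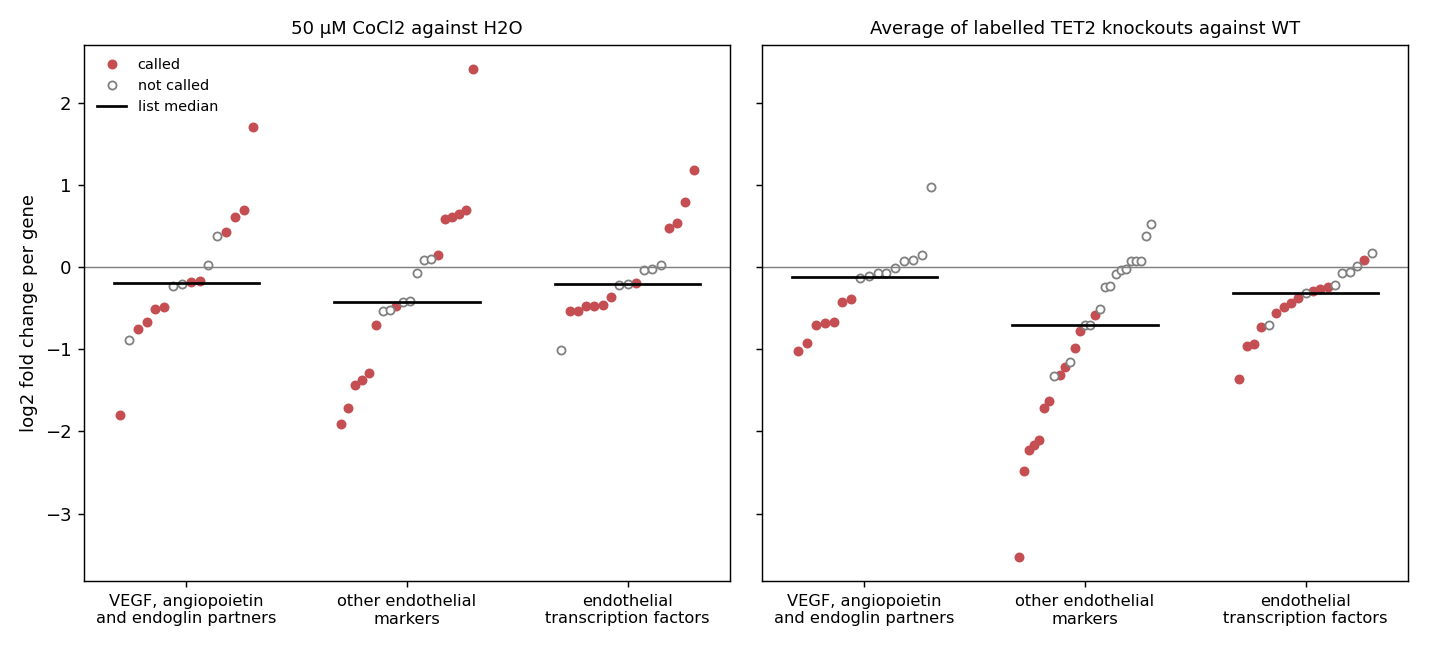
Log2 fold change (vertical axis) of every tested gene of the 3 partner lists, ordered by value within each list; filled dots were called, open dots were not, and bars are list medians. At 50 µM CoCl2 (left) called genes lie on both sides of 0 (14 higher, 21 lower of 53), and in the average of the labelled knockouts (right) 30 of the 31 called genes lie below it.

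Markers of other cell types moved in the same libraries. Of 10 fibroblast and mesenchymal genes tested in batch 2, 5 (COL1A1, COL3A1, PDGFRA, POSTN and FN1) were called lower and 1 (DCN) higher on average over the labelled knockouts, and the summed level of that list was 1700 to 1710 CPM in WT and 1180 to 1430 CPM in the labelled knockouts. Of 11 pericyte and smooth muscle genes, 6 were lower and 1 higher, with a sum of 6850 to 6880 CPM in WT and 6960 to 7300 CPM in the labelled knockouts, nearly all of it RGS5. At 50 µM CoCl2, 4 of 9 tested fibroblast genes were higher and 2 lower. The sum of that list went from 1500 CPM in H2O to 1960 and 1980 CPM. Of the pericyte genes, 3 of 11 were higher and 5 lower. Over all genes, 30.4% were higher and 31.1% lower at 50 µM, 61.4% in all. In the knockout average, 7.54% of all genes were higher and 11.4% lower. The part of these lists in the results above was not tested.

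Blood cells also express some members, such as PECAM1 in leukocytes and VWF in platelets. PTPRC, which defines leukocytes, had a mean of 0 in 5 groups and of 0.0160 and 0.0353 CPM in 50 µM CoCl2 and labelled knockout 1, and the platelet genes GP9, PF4 and PPBP were at 0 in all 14 libraries. The summed level of the 12 hematopoietic genes was 15.0 to 28.3 CPM in batch 1 and 27.2 to 37.9 CPM in batch 2, mostly CORO1A and CD68. Of 4 tested, CD68 was higher at 50 µM and LAPTM5 lower in the knockout average. The 6 platelet genes summed to 1.25 to 2.37 CPM, the 5 Schwann and glial genes to 1.61 to 2.66 CPM with FABP7 at 0 throughout, and the 6 epithelial genes to 7.20 to 12.4 CPM with KRT5 at 0 throughout. Of 2 platelet genes tested in each batch edgeR and DESeq2 called 0, with 1 at an unadjusted p under 0.05 at 50 µM and 0 in the knockout average. Of the glial genes edgeR called 0 of 1 at 50 µM (0 at an unadjusted p under 0.05, 0 in DESeq2) and 0 of 2 in the knockout average (1 at an unadjusted p under 0.05, 1 in DESeq2). Of 3 epithelial genes tested, KRT19 was called, lower at 50 µM and in the knockout average. The 9 adrenergic neuroblastoma genes summed to 8050 to 9410 CPM in batch 1 and 5790 to 7780 CPM in batch 2, lowest in labelled knockout 2. Of these 9 genes, 5 were higher and 3 lower at 50 µM, beside 30.4% and 31.1% of all genes. In the knockout average 3 were higher and 3 lower, beside 7.54% and 11.4% of all genes.

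The median log2 fold changes of the tested members were taken in the 5 contrasts against a control. Over 5 members they were -0.05 at 10 µM and -0.56 at 50 µM. Over 10 members they were -1.42, -0.31 and -1.39 in labelled knockouts 1, 2 and 3. At 50 µM the median was the value of VWF, which was not called, between 2 members called higher and 2 called lower. Among the 10444 genes tested in both batches that had a mean of at least 5 CPM in WT, likeness was measured as the root mean square difference from these 5 medians. The nearest were GRAP2 (0.138), MICAL2 (0.190), SH3BGRL (0.208), FBN1 (0.216), SASH1 (0.237) and FSTL1 (0.238). GRAP2, which encodes a signalling adaptor, had log2 fold changes of -0.28, -0.46, -1.41, -0.26 and -1.55. The contrasts share the H2O or the WT libraries, so the likeness is a description of these 14 libraries.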

How the data were processed

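RNA of 14 SK-N-BE2 libraries was analysed from deposited raw counts per gene. Per the submitters' processing notes, Trimmomatic 0.36, STAR 2.6.1d and Subread 1.5.3 were used with GRCh38 (hg38). Per the file headers, featureCounts 1.5.3 (batch 1) or 2.0.5 (batch 2) made the counts from the exons in the protein-coding part of GENCODE release 33, with the paired-end option and no strand option. Among counts from 1 to 10, 39.0% to 42.3% were even in batch 1 and 77.3% to 80.5% in batch 2, so batch 2 counts mostly stand for reads, which leaves CPM within a batch comparable.

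Groups came from the labels. Each batch was fitted with 1 coefficient per group in R 4.3.3 with edgeR 4.0.16 (filterByExpr, TMM, glmQLFit with legacy = FALSE and robust = TRUE, glmQLFTest), with 13636 genes tested in batch 1 and 14061 tested in batch 2. The dispersion was held at 0.0001001 or above, since edgeR's deviance below 1e-04 departs from the exact formula. A gene was called when its p, adjusted by Benjamini-Hochberg over all genes tested, was under 0.05. The SE was taken as the size of the log2 fold change over the root of its F statistic. All adjusted p-values are from this test unless DESeq2 (1.42.0) is named. The script was tested on simulated data. Intervals cover counting error only, and floors (3 counts over a group) cover that of the count of 0 only.

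The members and the 3 partner and 7 marker lists were chosen with earlier results of these data known. One gene of a marker list is not reported here. Of each partner list, the text names up to 4 genes per direction with the smallest adjusted p at 50 µM CoCl2 and in the knockout average, and the most abundant gene per kilobase in H2O and WT; the 6 genes most like the members were named by the root mean square difference. Replicate pairs differed by more than counting noise (chi-square per gene 1.23 to 1.46 in batch 1, and 1.95 to 2.83 in batch 2 after counts were divided by 2). Same-numbered libraries deviated together with correlations of -0.125 to 0.097 across genes, so replicate numbers were not taken as pairs. Alternatives were DESeq2, RLE size factors, no filter, a replicate block, no dispersion limit, all 14 libraries in 1 fit, halved counts, 1 coefficient for the 6 knockout libraries, and each library left out.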

Additional observations from a re-analysis of the deposited data

Results flagged for a closer look

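For 6 members and the targeted gene, the effect against WT differed between the labelled knockouts by a test of the difference itself. This was edgeR's quasi-likelihood F-test over the 3 groups, Benjamini-Hochberg adjusted, which called 37.6% of all genes. The calls of ERG, CDH5 and ENG ended when certain single libraries were left out, as given above. Between the highest and the lowest knockout the log2 fold change differed by 2.59 for FLT1, 2.03 for TEK, 1.95 for KDR, 1.36 for ERG, 1.18 for CDH5, 0.22 for ENG and 0.32 for TET2 itself. Labelled knockout 2 was highest for FLT1, TEK, ERG, CDH5 and TET2, knockout 3 for KDR and knockout 1 for ENG. The labels give no property in which the knockouts differ.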

How the results depend on the processing

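No result called in the main fit or in an alternative reversed its direction, and direction was not compared for results called in neither. Of 1292 recomputed results of single members, 1234 kept their side of the threshold, 57 lost the call and 1 gained it. Leaving out 1 library, members called ranged from 5 to 8 for labelled knockout 1 against WT (8 with all), 2 to 4 for knockout 2 against 1 (4), 1 to 3 for knockout 3 against 1 (3) and 3 to 4 for knockout 3 against 2 (5). With an arm of 1 library, that library was assumed to vary like the other groups. Partner-list genes called at 10 µM went from 17 to 5 in DESeq2 and to 5 in the fit of all 14 libraries; in the knockout average they went from 31 to 9 with 1 coefficient for the 6 libraries, the construction of which adds the differences between knockouts to the spread. The cause of the DESeq2 difference was not tested. With a replicate block, members called were 4 at 50 µM, 0 at 10 µM, 3 between doses, 6 in the knockout average, 7, 6 and 7 in labelled knockouts 1, 2 and 3, and 6 among them; ERG in knockout 1 lost its call (adjusted p 0.0564). Depth limits PECAM1, KDR, TIE1, CLDN5 and ERG in batch 1, which had at most 14 counts over both libraries of a group, and VWF, which had at most 21.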
